A study of Homo sapiens with 42 samples.

Results

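The 38 genes described here encode the core machinery of autophagy, and they were chosen by name from the protein-coding genes that were scored, 20007 in all. They fall into 11 genes of initiation and nucleation, 6 of lipid transfer and membrane supply, 10 of conjugation, 5 of the ATG8 family, 3 cargo receptors, and a last set of 3 that holds the transcription factors TFEB and TFE3 and the lysosomal membrane protein LAMP1. Each gene was scored at its promoter, taken as 1500 bp on either side of its main GENCODE transcription start site (TSS, build hg38), and over its gene body.

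The study used ChIP-seq to map DPPA2 and DPPA4, paired chromatin proteins of the early embryo, together with histone marks in non-small cell lung cancer cells. Of its 42 samples, 38 had a list of enriched intervals, and the other 4 were genomic inputs. Parental, untreated NCI-H661 cells, a lung large cell carcinoma line that expresses DPPA2/4, gave 18 lists: 2 libraries each of DPPA2, DPPA4, H3K27ac, H3K4me1, H3K36me3, H3K36me2, H2AK119ub, and H3K9me3, and a lone library each of KDM2A and SUZ12. NCI-H1299 cells, a lung adenocarcinoma line without DPPA2/4 of its own, gave 10 lists from controls (CTRL, water for 7 days) and 10 from cells given 2 µg/mL doxycycline for the same 7 days (DOX), with 2 libraries per mark. Control and DOX cells were the same stable line (NCIH1299_DOVE), which carries doxycycline-inducible, epitope-tagged DPPA2 and DPPA4 transgenes, so the controls hold the silent transgenes too and doxycycline itself was given only to the DOX cells. Nothing in the labels says whether replicates were separate cultures, and p-values then measure the spread between these libraries alone.

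Autophagy wraps part of the cytoplasm in a double membrane and delivers it to the lysosome for breakdown. The ULK kinase complex and a lipid kinase complex around PIK3C3 start the membrane, ATG9 and ATG2 proteins supply it with lipid, and a ubiquitin-like conjugation system attaches ATG8 proteins to it, where cargo receptors such as SQSTM1 dock. These genes are active in nearly all cell types, and TFEB and TFE3 raise the expression of many of them, and of lysosomal genes, when nutrients are short. Of the marks, H3K27ac lies at active promoters and enhancers, H3K4me1 at enhancers and promoter flanks, and H3K36me3 over transcribed gene bodies. H2AK119ub is the mark of Polycomb repressive complex 1 (PRC1), SUZ12 is a subunit of the second Polycomb complex (PRC2), KDM2A is an H3K36 demethylase that binds unmethylated CpG islands, and H3K9me3 marks heterochromatin.

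Depth differed between cell lines and libraries. Enriched intervals of histone marks, called islands, held 1.32 to 6.65 M ChIP reads per library in NCI-H661 cells and 0.138 to 3.66 M in NCI-H1299 cells. The DOX H3K27ac library of replicate 1 stood apart with 2.78 M island reads over 63.6 Mb, against 0.760 to 0.979 M over 22.97 to 29.5 Mb in the other H3K27ac libraries of that line. Folds over input were coarse in NCI-H1299 cells, where 17.9% to 62.8% of the islands in a library had no input read, against 0.565% to 9.69% in NCI-H661 cells. As a check of the labels, H3K27ac was present in both libraries at the DPPA2 and DPPA4 promoters in NCI-H661 cells and in no library of NCI-H1299 cells, which checks the native genes and not the transgenes. The promoters of the epithelial gene KRT18 and the mesenchymal genes VIM and ZEB1 carried H3K27ac in all 6 libraries, whereas the epithelial gene CDH1 and the lung genes NAPSA, SFTPC, and SCGB1A1 carried it in none. EPCAM, KRT8, and the lung gene NKX2-1 had it in both NCI-H661 and neither CTRL library. The mesenchymal genes CDH2 and FN1 had no island in NCI-H661 cells. Of 5 epithelial genes, 3, 1, and 2 carried it in both libraries of NCI-H661, CTRL, and DOX. The counts were 1, 0, and 0 of 5 lung genes and 2, 2, and 3 of 4 mesenchymal genes. In both NCI-H661 libraries, 1 of 3 endothelial genes (PECAM1) and 1 of 3 fibroblast genes (COL1A1) had an H3K27ac promoter island, and neither of these lists had a member with islands in both CTRL or both DOX libraries.

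DPPA2 and DPPA4 occupied the promoters of 9 of the 38 autophagy genes (23.7%) in NCI-H661 cells. Occupied here means a consensus peak within the promoter: peaks of both DPPA2 and both DPPA4 lists (fold over input above 2, q-value below 0.05) that share over 25% of their length. The DPPA2 list of replicate 1 held 69810 such peaks, against 26349 to 30497 in the other 3 lists. Among all genes scored, 5267 (26.3%) had such a peak, close to the share among autophagy genes. Among genes with promoter H3K27ac in both NCI-H661 libraries, which include all 38, the share was higher, at 38.9%. Initiation genes held 4 of the 9 (ULK2, ATG13, RB1CC1, and UVRAG), conjugation genes 1 (ATG16L2), ATG8 genes 2 (MAP1LC3A and MAP1LC3B), and the receptor SQSTM1 and the transcription factor TFEB completed the set. None of the 6 lipid transfer genes had one.

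ULK2, a kinase that starts autophagy, had the highest folds of the 9. Its consensus peak (chr17:19866739-19868435) rose 19.7 and 15.2 times over input in the DPPA2 libraries of replicates 1 and 3, and 10.5 and 10.7 times in the DPPA4 libraries of replicates 2 and 3. In the same order the median over all occupied promoters, taken at the highest peak in each, was 10.6, 6.501, 6.53, and 6.11, so ULK2 lay above the median in every library. Its partner subunits in the ULK complex, the adaptor ATG13 (chr11:46617141-46618233) and the scaffold RB1CC1 (chr8:52713315-52714459), gave 11.6, 7.30, 7.52, and 6.23, and 14.0, 5.62, 7.52, and 8.66. UVRAG, a subunit of a PIK3C3 complex (chr11:75815190-75815924), gave 8.95, 5.26, 5.31, and 6.87. The ATG13 window also holds the TSS of HARBI1, 326 bp away, so its peak cannot be assigned to either gene.

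Among the remaining occupied promoters, the consensus peak of TFEB (chr6:41734007-41735746) had the highest DPPA2 folds, 14.2 and 7.63, with DPPA4 folds of 6.14 and 7.46. MAP1LC3A and MAP1LC3B (chr16:87392351-87393287), which encode LC3 proteins, gave 9.38, 5.46, 7.96, and 4.79, and 6.32, 5.95, 3.73, and 6.45. SQSTM1, the p62 receptor for ubiquitylated cargo (chr5:179820244-179821691), gave 8.22, 5.65, 5.90, and 6.89, and ATG16L2, a relative of the conjugation scaffold ATG16L1 (chr11:72814352-72815046), gave 5.97, 6.15, 5.72, and 5.18. By the same measure as for all occupied promoters, the highest peak in each, which at some genes was not the consensus peak (SQSTM1 reached 8.03 in DPPA2 replicate 3), medians over the 9 genes were 9.38, 6.74, 7.45, and 6.87, within the range between the lower and upper quartiles of all occupied promoters in each library (8.01 to 14.2, 5.18 to 8.41, 5.35 to 8.21, and 4.92 to 7.76). Consensus summits in DPPA2 replicate 1 lay 89 bp (ATG16L2) to 573 bp (MAP1LC3B) downstream of the TSS, and in the other lists they were downstream too, except at SQSTM1 in DPPA2 replicate 3 and DPPA4 replicate 2 (-178 and -190 bp). In DPPA2 replicate 1 they fell in an untranslated part of an exon in ULK2, ATG13, UVRAG, and TFEB, in a coding exon in ATG16L2, MAP1LC3A, and SQSTM1, and in an intron in RB1CC1 and MAP1LC3B.

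**Figure D1:**
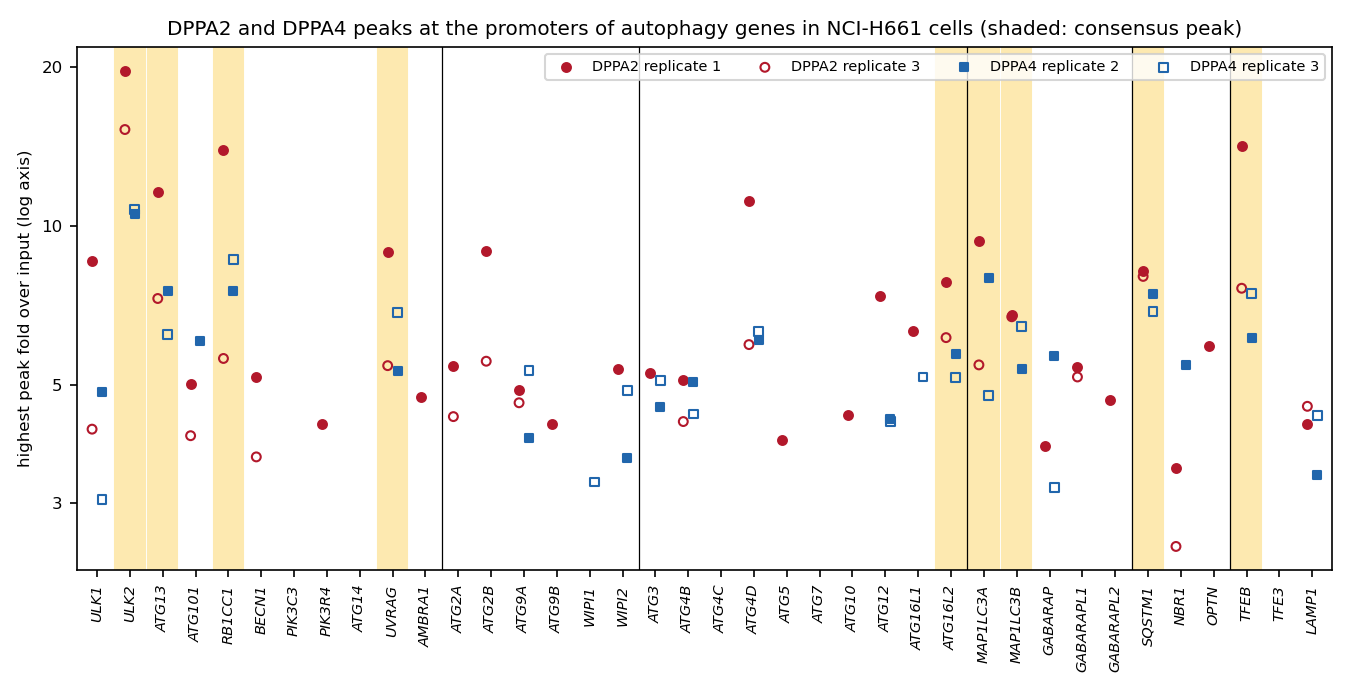
Highest fold over input (log axis) of any DPPA2 (circles) or DPPA4 (squares) peak in the promoter of each autophagy gene in NCI-H661 cells, 1 point a library, with the 9 genes that have a consensus peak shaded and vertical lines between roles. The highest peak in a window need not be the consensus one. ULK2 has the highest point in each of the 4 libraries, and 5 genes have no point.

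Occupancy short of the consensus was graded. Peaks in all 4 lists were present at 14 of the 38 promoters (33.1% of all genes), and 5 of those 14 lacked a consensus because the peaks did not overlap enough: the kinase ULK1, the lipid scramblase ATG9A, the ATG8 proteases ATG4B and ATG4D, and LAMP1. A further 6, 5, and 8 promoters had a peak in 3, 2, and 1 of the lists (9.71%, 8.68%, and 13% of all genes). The 5 without any were PIK3C3, the lipid kinase itself, its subunit ATG14, the protease ATG4C, the E1-like enzyme ATG7, and TFE3, against 35.5% of all genes. TFEB and TFE3, close relatives in sequence and function, were thus at opposite ends, whereas ATG16L1, the relative of ATG16L2, had peaks in 2 lists.

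The occupied promoters were richer in CpG than the others. In the 1001 bp centered on the TSS, the median GC content was 71.4% at the 9 occupied autophagy promoters, 61.8% at the other 29, and 56.6% at the 5 with no peak. The median ratio of observed to expected CpG was 0.829, 0.776, and 0.670. All genes split the same way, with 68.4% GC and a ratio of 0.826 at occupied promoters and 58.4% and 0.667 elsewhere. ATG9B, the ATG9 gene with the narrower tissue range, was the exception among the 38, with a ratio of 0.175 and only 14 CpGs in its window against a median of 84 for the 38. Ranges overlapped: the occupied ATG13 promoter had 60.3% GC, and ATG4B had the highest ratio of all 38 at 1.10 without a consensus peak.

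**Figure D2:**
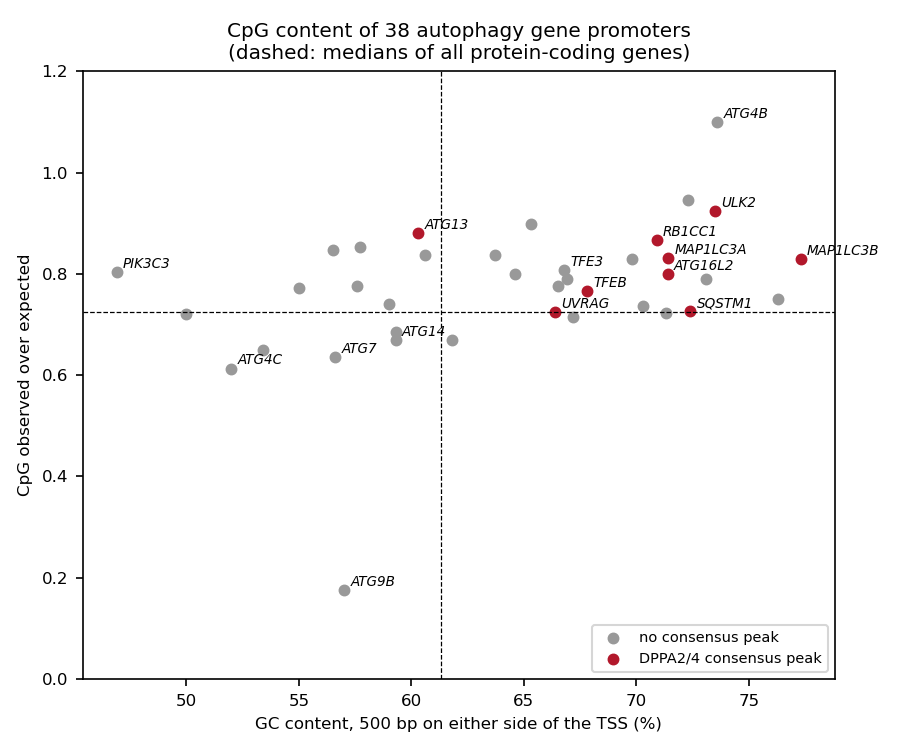
GC content (x axis, percent) against the ratio of observed to expected CpG (y axis) in the 1001 bp centered on the TSS of the 38 autophagy genes, with the 9 that have a DPPA2/4 consensus peak in red. Occupied promoters lie at 60.3% to 77.3% GC and ratios of 0.724 to 0.924, and ATG9B lies alone at 0.175.

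The 120 bases just upstream of the TSS are shown for 2 occupied promoters, where all 120 lie inside the consensus peak, and for 3 promoters with no DPPA2 or DPPA4 peak. They are read 5′ to 3′ on the strand of the gene from hg38, with each CpG in capitals (ULK2 chr17:19867937-19868056, minus strand, TFEB chr6:41735609-41735728, minus strand, PIK3C3 chr18:41955114-41955233, plus strand, ATG14 chr14:55411831-55411950, minus strand, and ATG4C chr1:62784012-62784131, plus strand). The occupied promoters hold 16 and 13 CpGs, and the others 14, 9, and 11, so that over this short stretch the counts overlap, with more in PIK3C3 than in TFEB. In the same order, ratios of observed to expected CpG were 0.891 and 0.857, against 1.2, 0.642, and 1.05. This stretch thus does not show the difference in ratio seen over the wider windows.
ULK2: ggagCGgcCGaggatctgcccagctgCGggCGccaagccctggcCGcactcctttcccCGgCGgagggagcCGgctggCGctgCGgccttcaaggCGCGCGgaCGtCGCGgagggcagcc
TFEB: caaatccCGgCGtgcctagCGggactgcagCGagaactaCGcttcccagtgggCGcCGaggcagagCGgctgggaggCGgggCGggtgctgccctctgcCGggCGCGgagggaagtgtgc
PIK3C3: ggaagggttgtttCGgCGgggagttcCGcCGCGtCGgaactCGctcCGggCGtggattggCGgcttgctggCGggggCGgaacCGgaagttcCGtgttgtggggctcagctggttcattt
ATG14: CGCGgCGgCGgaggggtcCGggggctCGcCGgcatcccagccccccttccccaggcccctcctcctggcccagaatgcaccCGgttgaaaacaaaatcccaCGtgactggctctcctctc
ATG4C: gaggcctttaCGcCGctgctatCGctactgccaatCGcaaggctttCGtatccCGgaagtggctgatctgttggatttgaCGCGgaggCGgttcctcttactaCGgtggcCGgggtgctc

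Other chromatin proteins in NCI-H661 cells were seen at fewer of these promoters. KDM2A, from its lone library, had a peak at 8 of the 38 (10.5% of all genes). Among genes with promoter H3K27ac in both NCI-H661 libraries, the KDM2A share was 17.0%. Folds at the 8 were 6.21 at ULK2, 5.57 at UVRAG, 5.68 at ATG2B, 7.58 at ATG9A, 4.46 at ATG3, 4.58 at MAP1LC3A, 6.25 at MAP1LC3B, and 5.36 at TFEB. Of those, 5 were among the 9 DPPA2/4-occupied promoters and 3 among the other 29, and over all genes KDM2A was at 28.3% of occupied and 4.21% of other promoters. ATG2B, ATG9A, and ATG3 share their windows with the TSS of GSKIP, ANKZF1, and SLC35A5, at distances of 185, 170, and 83 bp. SUZ12 had no peak at any of the 38 promoters, against 15.6% of all genes and 6.11% of the genes whose promoters carried H3K27ac in both libraries.

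H2AK119ub, called where both NCI-H661 libraries had an island with a fold over input above 2 and a false discovery rate below 0.05, lay at 7 of the 38 promoters (24.3% of all genes). The 7 were the kinases ULK1 and ULK2, UVRAG, the lipid transfer protein gene ATG2A, ATG9B, MAP1LC3A, and TFEB. Of them, 4 were among the 9 DPPA2/4-occupied promoters and 3 among the other 29, and over all genes the mark was at 40.7% of occupied and 18.4% of other promoters. Island reads in the promoter (replicates 1 and 2) were 18 and 65.6 at ULK1, 16 and 32 at ULK2, 28 and 25 at UVRAG, 13.5 and 58 at ATG2A, 6.68 and 77 at ATG9B, 45.5 and 79.8 at MAP1LC3A, and 38 and 56.1 at TFEB. Fractions arise because reads of an island that crosses the window edge were shared out by length. Replicate 2 held 6.65 M island reads against 1.32 M in replicate 1, and UVRAG was the lone gene of the 7 with no more reads in replicate 2. None of the 10 conjugation genes carried the mark in both libraries. H3K36me2, deposited for NCI-H661 cells alone, was called at 3 promoters (5.50% of all genes), ATG9B, WIPI2, and TFEB. Its islands covered much of the gene body of TFEB (37.0% and 88.2% in the 2 libraries), MAP1LC3A (49.3% and 57.1%), and ATG9B (17.9% and 76.4%), whereas the median member had none in either library.

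All 38 promoters carried H3K27ac in both NCI-H661 libraries, against 58.1% of all genes. In NCI-H1299 cells it was called at 31 of the 38 in CTRL (38.3% of all genes) and 36 in DOX (51.3%). Of the genes acetylated in both NCI-H661 libraries, 62.4% and 81.5% were called in CTRL and DOX, the nearer background for genes that are all active in NCI-H661 cells. Because whole cultures were profiled, a mark in fewer cells and less of the mark per cell cannot be told apart.

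The autophagy promoters that lacked H3K27ac in both CTRL libraries while carrying it in both NCI-H661 libraries were ULK2, ATG9B, and TFEB (12.1% of all genes). At ULK2, NCI-H661 libraries had 79.2 and 198 island reads in the promoter, CTRL had no island, and DOX had 51 and 11. At TFEB, NCI-H661 had 89.8 and 111 reads, CTRL had no island, and DOX had 40.8 in replicate 1 and none in replicate 2. ATG9B, with 11 and 62.7 reads in NCI-H661 cells, was the lone member with no island in any of the 4 NCI-H1299 libraries (39.0% of all genes). A missing island, written as 0 reads below, means that reads, if any, were not listed. No member had the mark in both CTRL and neither NCI-H661 library (0.765%). NCI-H661 H3K27ac libraries were also deeper, at 2.16 and 6.04 M island reads, and the part of depth in this difference was not tested.

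ULK2 was the only one of the 38 with H3K27ac in neither CTRL and both DOX libraries (5.03% of all genes). A further 4 members had it in 1 CTRL and both DOX libraries, ATG13, WIPI1, PIK3C3, and ATG7, and none had it in both CTRL and neither DOX library (0.0800%). The share of all genes with it in 1 CTRL and both DOX libraries was not counted. Over all genes H3K27ac was called at 38.3% of promoters in CTRL and 51.3% in DOX. At ATG7 the promoter reads were 0 and 6.93 in CTRL and 87 and 37 in DOX. At ATG13 they were 0 and 43, then 81 and 17. Replicate 1 gave the higher DOX value in all 5 genes, and that library held 2.78 M island reads against 0.979 M in replicate 2.

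**Figure D3:**
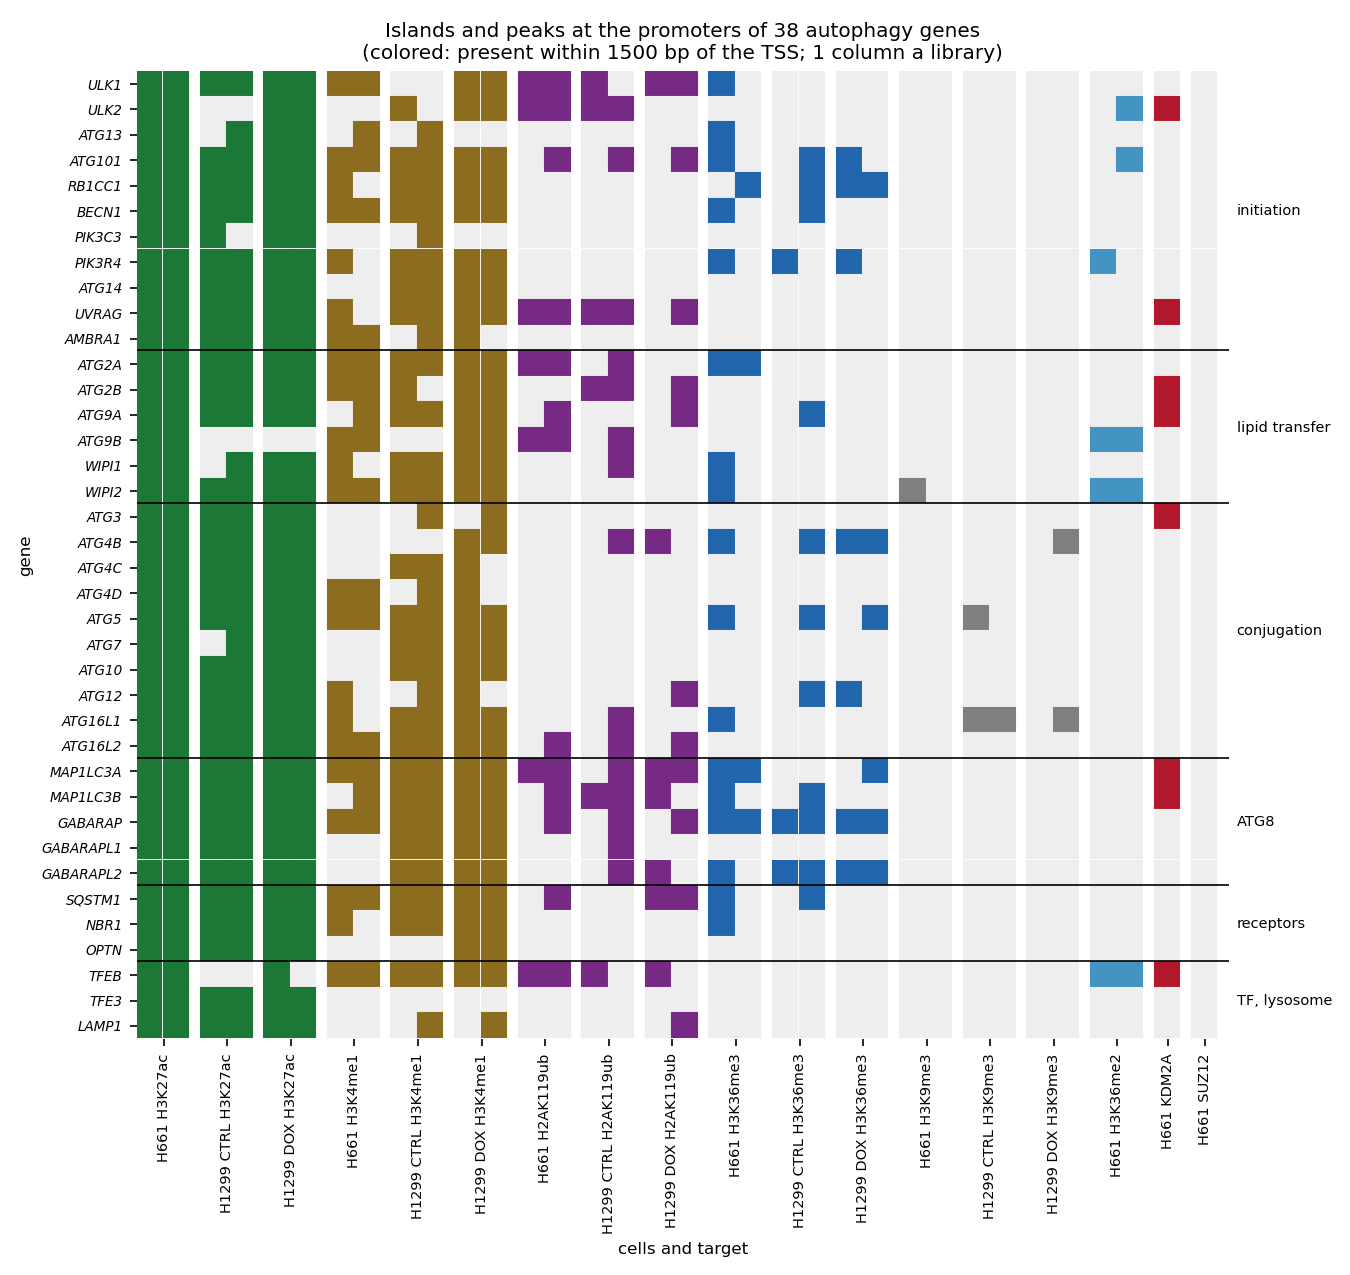
Islands and peaks at the promoters of the 38 autophagy genes (rows, grouped by role), with 1 column a library, in replicate order within each cell group and target, and a colored cell where an interval overlaps the promoter. H3K27ac fills all of NCI-H661, SUZ12 is empty, and ULK2, ATG9B, and TFEB are the rows without H3K27ac in either CTRL library.

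The other marks in NCI-H1299 cells followed fewer genes. H2AK119ub was called at 4 promoters in CTRL (8.81% of all genes), ULK2, UVRAG, ATG2B, and MAP1LC3B, and at 3 in DOX (11.6%), ULK1, MAP1LC3A, and SQSTM1. At ULK2, CTRL libraries had 14 and 26 H2AK119ub reads and DOX had no island, the lone member with that pattern (2.09% of all genes), so that within NCI-H1299 cells this promoter had H2AK119ub in CTRL alone and H3K27ac in both DOX libraries alone. SQSTM1 had the opposite H2AK119ub pattern, with no island in CTRL and 22 and 14 reads in DOX (3.04% of all genes). At UVRAG the reads were 18.2 and 33.6 in CTRL and 0 and 13 in DOX, and at MAP1LC3B 27 and 52, then 21 and 0. At ATG2B they were 16 and 12, then 0 and 4.64, with no island in NCI-H661 cells, the lone member called in CTRL and in neither NCI-H661 library (1.98%). No member had it in both NCI-H661 and neither CTRL library (11.5%). ULK1 had 27 and 0, then 2.85 and 42.4, and MAP1LC3A 0 and 18, then 15.1 and 11. An H2AK119ub island was present in at least 1 library at 17 members in CTRL and 15 in DOX, so most of the presence calls differed between replicates.

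H3K4me1 was called at 15 promoters in NCI-H661 cells (29.6% of all genes), 24 in CTRL (37.2%), and 29 in DOX (43.9%). The 4 with it in neither CTRL and both DOX libraries (3.23%) were ULK1, ATG9B, ATG4B, and OPTN, a receptor for damaged mitochondria, with 30.1 and 19, 2.51 and 17.4, 30.8 and 23.4, and 16 and 18 reads in DOX. In the other direction across lines, 6 members carried it in both CTRL and neither NCI-H661 library (10.3%): ATG14, ATG4C, ATG7, and ATG10, and the ATG8 genes GABARAPL1 and GABARAPL2. ULK1 and ATG9B had it in both NCI-H661 and neither CTRL library (7.27%), and no member had it in both CTRL and neither DOX library (1.12%). GABARAPL2 had 56 and 73.1 reads in CTRL and no island in NCI-H661 cells. ATG14, ATG4C, and ATG7 are also among the 5 genes without a DPPA2 or DPPA4 peak, whereas PIK3C3 and TFE3, which lack one too, did not have this H3K4me1 pattern. The share of all genes with both traits was not counted, and a link was not tested. H3K9me3 was called at no member in NCI-H661 cells (4.14% of all genes) or DOX (0.165%), and in CTRL at ATG16L1 alone (0.190%), with 11 reads in each CTRL library, 0 and 10.0 in DOX, and no island in NCI-H661 cells (0.135%). No member had H3K9me3 in both NCI-H661 and neither CTRL library (3.73%), in neither CTRL and both DOX libraries (0.0350%), or in both CTRL and neither DOX library (0.0950%).

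H3K36me3, a mark of gene bodies, reached into 3 promoters in NCI-H661 cells (7.18% of all genes), 2 in CTRL (7.37%), and 4 in DOX (9.52%). GABARAP had it in all 3 conditions and GABARAPL2 in CTRL and DOX. ATG2A and MAP1LC3A had it in both NCI-H661 and neither CTRL library (2.92%), and no member had the reverse (1.70%). None had it in neither CTRL and both DOX libraries (1.95%) or in both CTRL and neither DOX library (0.730%).

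H3K27ac reads at the promoters were compared between conditions with edgeR's quasi-likelihood test over all promoters with islands in each of the 4 libraries, with Benjamini-Hochberg adjustment over all of them, and a change was called at an adjusted p below 0.05 and a log2 change of at least 0.5. Between NCI-H661 and CTRL, 31 of the 38 could be tested and 2 were called, against 16.3% of all 7253 promoters. AMBRA1, a regulator of the BECN1 complex, had 35.0 and 26.9 CPM (reads over the tested promoters, scaled to the same total in each library) in CTRL and 97.0 and 103 in NCI-H661 cells, a log2 change of 1.68 ± 0.40 (SE, n = 2 libraries per group, edgeR adjusted p = 0.0335). GABARAPL1, an ATG8 gene, had 239.9 and 350.2 CPM in CTRL and 122.5 and 94.3 in NCI-H661 cells, a log2 change of -1.46 ± 0.27 (edgeR adjusted p = 0.0184). For both genes the CTRL and NCI-H661 values did not overlap.

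The difference at AMBRA1 went with covered length: islands covered 700 and 300 bp of its window in CTRL and 1800 and 2378 bp in NCI-H661 cells. Per covered base the log2 change there was 0.09 (edgeR adjusted p = 0.926). NCI-H661 H3K27ac libraries held 2.16 and 6.04 M island reads, against 0.775 and 0.760 M in CTRL. The part of depth in covered length was not tested. At GABARAPL1 the log2 change was -0.73 per covered base (edgeR adjusted p = 0.0364). Input reads per kb in the GABARAPL1 islands were 3.28 and 2.45 times the mean of all islands of the library in CTRL, and 0.763 and 0.943 times in NCI-H661 cells. Copy number and the H3K27ac level cannot be told apart there, as input moved with the result. In every comparison between the lines, at all genes, cell line, experiment, cell number per ChIP, spike-in, and copy number cannot be told apart. Without either NCI-H661 library, neither gene passed (edgeR adjusted p = 0.186 and 0.222 at AMBRA1, 0.147 and 0.176 at GABARAPL1), and no promoter of any gene was called in those fits (0 of 7495 and 0 of 7265).

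Between DOX and CTRL no autophagy promoter was called, and no promoter of any gene was either (0.0% of 7382, edgeR with the replicate as a block, 391 at an unadjusted p below 0.05). The lone one of 31 members below an unadjusted 0.05 was ATG9A, with 64.9 and 81.9 CPM in CTRL and 156.5 and 173.9 in DOX, a log2 change of 1.17 ± 0.33 (SE, n = 2 per group, edgeR adjusted p = 0.853). Its islands covered 700 and 800 bp in CTRL and 2336 and 1800 bp in DOX, and per covered base the log2 change was 0.14. The median log2 change was 0.11 over the 31 and 0.01 over all promoters tested.

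**Figure D4:**
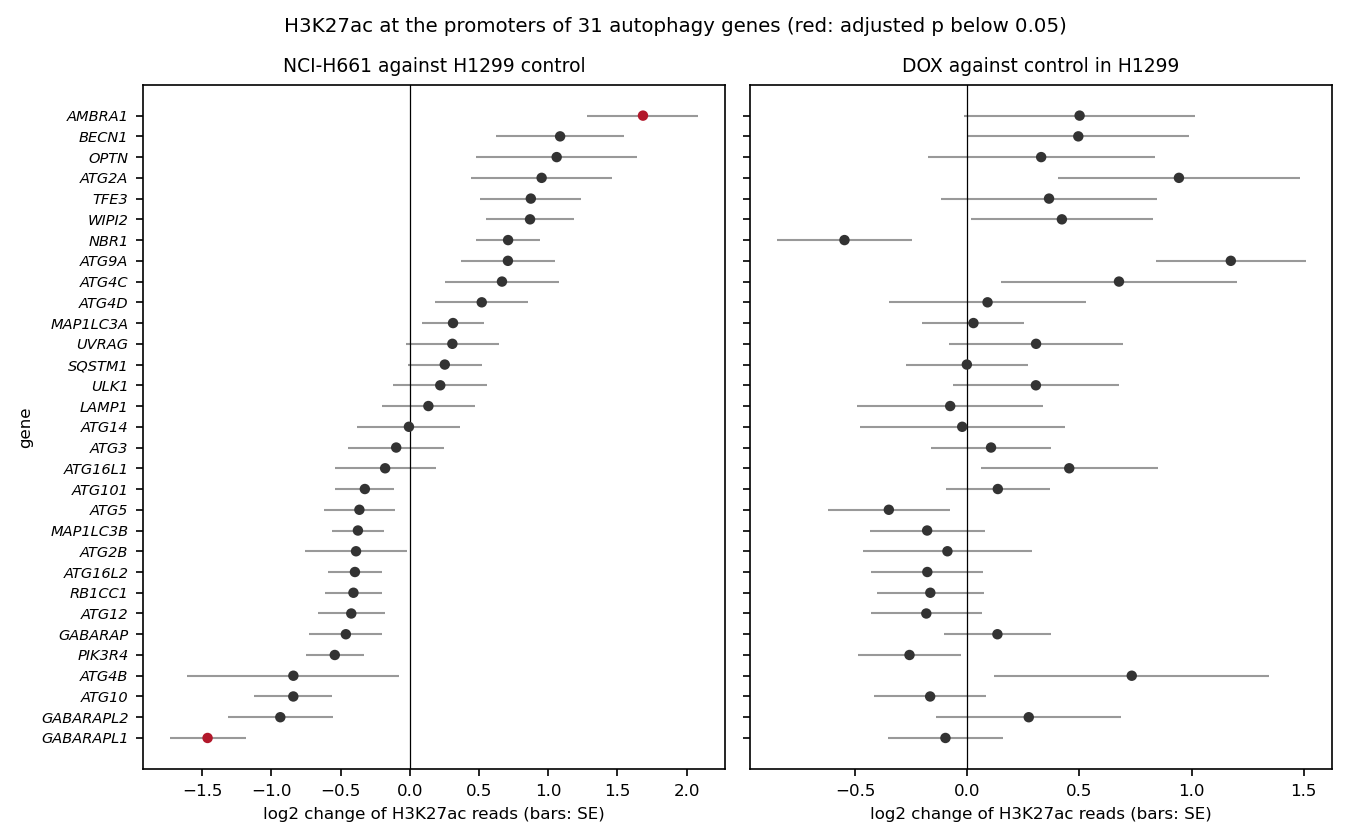
Log2 change of H3K27ac reads in the promoter (x axis, points, with bars of 1 SE from the fit, 2 libraries per group) for the 31 autophagy genes with islands in all 4 libraries of a comparison, ordered by the change between cell lines. AMBRA1 and GABARAPL1 (red) pass in NCI-H661 against CTRL on the left, and none passes in DOX against CTRL on the right.

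The same comparisons were made over joined regions, where islands of the 4 libraries were merged and had to cover at least 50% of the region in each. For H3K27ac, 14 members could be tested between DOX and CTRL and 15 between the lines, and none was called in either (0.0% of 3436 and 21.8% of 3005 regions). In the DOX comparison 188 of all regions and no member had an unadjusted p below 0.05, and DESeq2 called none as well (11 regions at an unadjusted p below 0.05). With no coverage minimum 0.116% of all regions and no member were called. Between the lines the nearest member was BECN1, the scaffold of the lipid kinase complex, at 0.65 (edgeR adjusted p = 0.0501). Its region (chr17:42832301-42834500) lay at the edge of the annotated gene and outside its scored promoter. Start sites of other genes were not searched there, so the region cannot be assigned to BECN1 alone. For H3K4me1, 10 members were tested in DOX against CTRL and none called by edgeR (2 at an unadjusted p below 0.05) or DESeq2, against 0.0282% of 7095 regions. Over whole promoter windows, 23 members were tested in DOX against CTRL and none was called (0.0% of 6152). The 3 below an unadjusted 0.05 were lower in DOX: ATG14 (-2.13), GABARAPL2 (-1.08), and MAP1LC3A (-1.47), each at an edgeR adjusted p of 0.758. Per covered base these log2 changes were -0.22, -0.35, and -0.05. In joined regions between the lines, 4 members were tested and 2 called (15.0% of 1206 regions). TFEB, in a region downstream of its TSS (chr6:41732501-41734300), had 262.9 and 268.4 CPM in CTRL and 443.3 and 521.0 in NCI-H661 cells, a log2 change of 0.86 ± 0.32 (SE, n = 2 per group, edgeR adjusted p = 0.0469). GABARAP (chr17:7239901-7242000) had 525.9 and 628.4 CPM in CTRL and 293.1 and 327.0 in NCI-H661 cells, a log2 change of -0.89 ± 0.31 (edgeR adjusted p = 0.0346). Groups did not overlap for either gene, but DESeq2 called neither (adjusted p = 0.137 and 0.0878), and neither passed once any 1 of the 4 libraries was left out. Over the whole promoter window the log2 change was 0.48 at TFEB and -0.08 at GABARAP (edgeR adjusted p = 0.624 and 0.944), where the GABARAP values overlapped, at 378 and 399 CPM in CTRL and 261 and 476.5 in NCI-H661 cells. H2AK119ub and H3K9me3 had no member region to test in either comparison.

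H3K36me3 covered more of the autophagy gene bodies than of the median gene scored. Unlike the members, many of the genes scored lack promoter H3K27ac in NCI-H661 cells. Coverage was not compared with genes that carry it. The median share of the body under islands was 41.8% and 12.9% in the 2 NCI-H661 libraries, 13.1% in each CTRL library, and 16.8% and 17.7% in DOX. Over all genes the same medians were 4.84%, 0.0%, 0.0%, 0.0%, 0.426%, and 0.430%, and any island in the body was present at 37 and 33 members in NCI-H661 cells (55.9% and 49.8% of all genes), 31 and 32 in CTRL (48.4% and 48.9%), and 32 and 35 in DOX (51.0% and 50.9%). The NCI-H661 libraries differed, with islands over 186.6 Mb in replicate 1 and 79.96 Mb in replicate 2.

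Among the members the highest mean coverage in NCI-H661 cells was at ATG2A (88.2% and 84.3%), the PI3P-binding protein gene WIPI2 (90.3% and 62.1%), and ULK1 (79.0% and 70.8%). It was lowest at ATG9B, with none, ATG10 (1.46% and 0.0%), and PIK3C3 (4.37% and 0.0%). In CTRL it was highest at GABARAPL2 (87.6% and 69.4%), the ubiquitin-like gene ATG12 (45.5% and 63.8%), and GABARAP (45.0% and 53.2%), and in DOX at GABARAPL2 (85.0% in both), ATG12 (77.0% and 58.7%), and the lipid kinase subunit PIK3R4 (57.8% and 53.3%). ULK2, ATG9B, and TFEB had no H3K36me3 island in the body in any of the 4 NCI-H1299 libraries, the same 3 genes without promoter H3K27ac in CTRL. Over all genes, 48.4% to 51.0% had a body island in each NCI-H1299 library. The share of all genes with both traits was not counted, and a link was not tested. ULK2 had 73.9% and 13.1%, and TFEB 17.6% and 22.8%, in NCI-H661 cells. AMBRA1 and MAP1LC3A had none in CTRL and at most 4.78% in DOX.

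**Figure D5:**
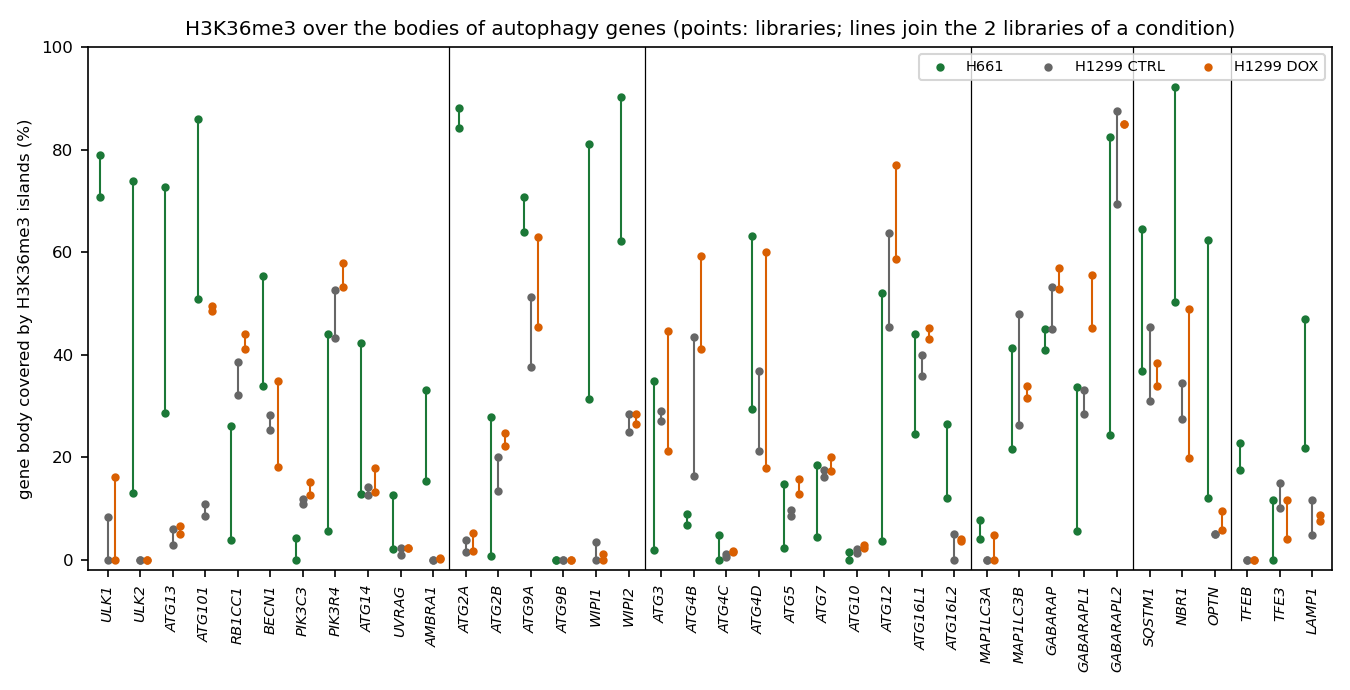
Share of each autophagy gene body covered by H3K36me3 islands (y axis, percent), 1 point a library, with a line joining the 2 libraries of NCI-H661 (green), CTRL (gray), and DOX (orange), and vertical lines between roles. ATG2A, ULK1, and WIPI1 lie higher in both NCI-H661 libraries than in all 4 NCI-H1299 libraries, and ATG101 is at 8.48% and 10.9% in CTRL and 48.5% and 49.6% in DOX.

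Of the H3K36me3 reads over gene bodies, 26 members could be tested between the lines and 6 were called, against 15.1% of all 7368 bodies tested. Higher in NCI-H661 cells were ATG2A, ATG13, ATG101, OPTN, and WIPI2, and RB1CC1 was lower. The median log2 change over the 26 was -0.28, against 0.09 over all bodies tested. ATG2A had 6.47 and 3.53 CPM in CTRL and 113 and 326 in NCI-H661 cells, a log2 change of 5.45 ± 0.80 (SE, n = 2 per group, edgeR adjusted p = 0.0111). ATG13 had 30.3 and 14.1, then 221 and 217.5, a log2 change of 3.30 ± 0.61 (edgeR adjusted p = 0.0181). ATG101, another subunit of the ULK complex, had 9.30 and 9.42, then 46.1 and 82.0 CPM, OPTN had 17.4 and 16.1, then 117 and 61.2, and WIPI2 had 94.2 and 108, then 279 and 447, with log2 changes of 2.77, 2.41, and 1.84 (edgeR adjusted p = 0.0378, 0.0475, and 0.0364).

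RB1CC1 had 537 and 419 CPM in CTRL and 146 and 53.9 in NCI-H661 cells, a log2 change of -2.25 ± 0.56 (SE, n = 2 per group, edgeR adjusted p = 0.0353). Thus 3 subunits of the same kinase complex did not move together, with ATG13 and ATG101 higher and RB1CC1 lower in NCI-H661 cells. Most of each difference went with how much of the body was covered, and the part of depth in that coverage was not tested. Per covered base WIPI2 remained at 0.59 (edgeR adjusted p = 0.00308), and RB1CC1 lay under the size limit at -0.34 (0.0262). ATG2A, ATG13, ATG101, and OPTN did not pass (0.208 to 0.578). MAP1LC3B was called per covered base alone, at -0.60 (0.00603). Input moved with both: relative to all islands it was 0.697 and 0.573 in CTRL and 1.18 and 1.16 in NCI-H661 cells at WIPI2, and 1.80 and 1.93, then 0.913 and 0.797, at MAP1LC3B, so copy number and the mark cannot be told apart there either. ATG2A passed whichever library was left out, with edgeR adjusted p-values of 2.49e-05 to 0.0252, and the other 5 did not pass without either CTRL library (0.0832 to 0.441).

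No gene body was called among the 30 members tested between DOX and CTRL, against 0.714% of 8685, and none of the 13 with a joined H3K36me3 region was called (0.210% of 7146). Between the lines, none of the 5 with a joined region was called (14.0% of 1405). The largest DOX value was at ATG101, with 8.26 and 8.37 CPM in CTRL and 26.4 and 29.1 in DOX, a log2 change of 1.73 ± 0.58 (SE, n = 2 per group, edgeR adjusted p = 0.243), and of -0.27 per covered base. DESeq2 called no joined region of any gene in that comparison. ATG101 and 2 further members, ATG4B and ATG7, had an unadjusted p below 0.05 in the gene body test.

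For the wider pathway, 3 lists of other genes were scored the same way. DPPA2/4 consensus peaks lay at 5 of 32 other autophagy genes (15.6%), including the TFEB relative MITF, 8 of 31 lysosomal genes (25.8%), including the protease protector CTSA, and 11 of 32 nutrient-sensing genes (34.4%), including the AMPK subunit PRKAA1 and its activator STK11. H3K27ac was called at 27, 30, and 27 of them in NCI-H661 cells, 18, 18, and 24 in CTRL, and 24, 23, and 28 in DOX. Over all genes the H3K27ac shares were 58.1%, 38.3%, and 51.3%, and 26.3% had a consensus peak. Between DOX and CTRL none of the 3 lists had a gene called in a joined region of any mark. Over all genes 0.0282% of H3K4me1 and 0.210% of H3K36me3 regions were called there, and none of the other marks. Between the lines, H3K27ac was called at 1 of 8 other autophagy genes tested (VMP1) and 2 of 7 lysosomal genes (ATP6V1H and CLCN7). It was also called at 2 of 10 nutrient-sensing genes (PRKAG2 and STK11), against 21.8% of all regions. H3K4me1 was called at VMP1 and CD63 (15.0% of all), and H3K36me3 at none (14.0%).

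TFEB and TFE3 bind the E-box CACGTG, and the flanked form TCACGTGA is common in lysosomal promoters, so both were searched in the RefSeq promoters (250 bases before to 50 after the start, GRCh38.p14), where 34 of the 38 genes matched. CACGTG, which reads the same on both strands and lies within the longer form, was found at ATG14, ATG3, and LAMP1 (8.82% of the 34, against 7.43% of 27305 promoters), and TCACGTGA at ATG3 and LAMP1 (5.88% against 1.04%). The CLEAR element, which adds a base at each end, was found at none of the 34 (0.381% of all). The E-boxes are shown in capitals with the 11 bases on either side (ATG3 chr3:112561940-112561969, minus strand, LAMP1 chr13:113297199-113297228, plus strand, the first of 2 copies, and ATG14 chr14:55411835-55411862, minus strand). All 3 promoters carried H3K27ac in all 6 libraries, as did most members. All 38 had it in both NCI-H661 libraries, and 31 had it in both CTRL and both DOX libraries (36.9% of all genes).
ATG3: agagtctagtgTCACGTGAggccccggtgg
LAMP1: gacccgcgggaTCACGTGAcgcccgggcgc
ATG14: aaacaaaatccCACGTGactggctctcc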

How the data were processed

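ChIP-seq lists from NCI-H661 and NCI-H1299 cells were used. Per the study's methods, the authors trimmed and aligned reads to hg38 and called histone islands per library with EPIC2 (100 bp bins, a gap of 1, 147 bp fragments) and narrow peaks with MACS2, against matched inputs; settings for KDM2A are not given in the sources used here. The deposited EPIC2 lists hold ChIP and input read counts, p-values, a score, and log2 folds per island. The deposited MACS2 lists hold the fold ratio over input and −log10 p- and q-values per peak, with no read counts, so their depth is unknown. Trim Galore 0.6.6, BWA 0.7.13, SAMtools 1.9, and Picard 2.6.0 are named in the submitters' processing notes. The spike-in used for the treatment ChIPs could not be applied to the lists, and the blacklist was not used here.

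Intervals with a log2 fold above 1 and a false discovery rate or q-value below 0.05 were assigned to promoters and gene bodies (GENCODE 44, 24 of 24 chromosomes within the reference). Counts were tested with edgeR 4.0.16 (glmQLFit, TMM, R 4.3.3), in DOX against CTRL with the replicate as a block, as in the study's design, and in NCI-H661 against CTRL without. Replicates of the same number correlated in their deviations at 0.04 to 0.25 in the DOX comparisons, and the pairing rests on the methods, where experiments were replicated in complete batches; that a replicate number marks a batch was assumed. Promoter and gene body windows were added after seeing the data, since few members could be tested as joined regions. DESeq2 1.42.0, RLE size factors, no coverage minimum, coverage-scaled reads, a stricter fold, other promoter widths, and leaving out each library were alternatives. Scripts were tested on simulated data. SEs were derived from the quasi-likelihood p-value.

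The members and gene lists were chosen with earlier results of these data known. Named in full are members with a consensus peak, a called change, no H3K27ac in both libraries of a condition, a called KDM2A, SUZ12, H2AK119ub, or H3K9me3 promoter, or the 3 highest or lowest H3K36me3 coverages, and others were chosen after their values were seen. Results for 1 marker gene list and 1 promoter sequence are not reported here.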

Additional observations from a re-analysis of the deposited data

How the results depend on the processing

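Of the 38 members, counts of H3K27ac promoters in NCI-H661 and DOX cells, KDM2A, and SUZ12 moved by less than 1.5 times under each alternative run, and no change called in the report reversed. With a fold above 4, H2AK119ub was called at 1 member in each of NCI-H661, CTRL, and DOX, H3K27ac at 15 in CTRL, H3K4me1 at 9, 12, and 13, H3K36me2 at 1, and promoter H3K36me3 at 1, 0, and 0, and the median H3K36me3 body coverage (means of 2 libraries) was 4.57% in CTRL and 7.34% in DOX. With 500 bp on either side, H3K4me1 was called at 2, 9, and 4, H3K36me2 at 1, promoter H3K36me3 at 0 in all 3, H3K9me3 in CTRL at 0, and H2AK119ub in DOX at 1. With any TSS of a gene, promoter H3K36me3 was called at 17, 12, and 14, H2AK119ub in DOX at 8, and H3K9me3 in CTRL at 2. These counts and those of the next paragraph are given without the share of all genes under the same setting. They show how the settings act and nothing particular to autophagy genes.

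Leaving out 1 library gave 10 to 14 consensus promoters (14 without DPPA2 replicate 3), and 6 with more than 50% overlap. It gave H2AK119ub at 7 to 13, 6 to 15, and 7 to 11 promoters in NCI-H661, CTRL, and DOX, H3K36me2 at 4 to 5, promoter H3K36me3 at 4 to 17, 3 to 11, and 6 to 7, H3K9me3 at 0 to 1, 1 to 2, and 0 to 2, and a median body coverage of 13.1% to 13.1% in CTRL.

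In the DOX fits, leaving out 1 library gave 0 to 2 called members for H3K27ac promoter windows (ATG4B and ATG9A without CTRL replicate 2, where 3.52% of all promoters were called) and 0 to 1 for H3K4me1 windows (UVRAG, with 1.75% of all), and no coverage minimum gave 1 for H3K36me3 (MAP1LC3B). Between the lines, joined H3K27ac regions gave 1 with the replicate block and 1 with RLE factors (BECN1), 5 with no coverage minimum, 2 as promoter windows, and 0 to 2 leaving out 1 library. H3K27ac windows gave 1 per covered length and 0 to 6 leaving out 1, with ATG4B, not called with all libraries, lower without CTRL replicate 1 and higher without CTRL replicate 2 (28.6% and 33.1% of all promoters called). H3K4me1 gave 1 with the replicate block, 1 with RLE factors, 0 with DESeq2, 0 as promoter windows, and 0 to 0 leaving out 1. H3K36me3 gave 5 with no coverage minimum, 6 as gene body windows, and 0 to 3 leaving out 1, and its windows gave 2 per covered length (6.30% of all bodies called) and 1 to 17 leaving out 1. The 17, of which 7 were higher and 10 lower, were without NCI-H661 replicate 1, where 55.9% of all bodies were called. H2AK119ub gave 2 of the 4 members tested with no coverage minimum (TFEB higher, UVRAG lower), where 313 of all 1923 regions were called. The cause was not tested. Under the same setting between the lines, 1938 of all 8408 H3K27ac and 1665 of all 13434 H3K36me3 regions were called. In DOX against CTRL, 183 of all 23356 H3K36me3 regions were. Calls with no coverage minimum were thus not confined to autophagy genes. In the joined-region fits, the replicate block or its removal changed the count of called members in no other comparison. Same-numbered libraries of the 2 lines share only a number, and their deviations correlated at -0.28 to 0.12.

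A missing island gives no read count, so the tests reach only members with islands in all 4 libraries of a comparison, and with 2 libraries per group a small change cannot be detected.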
